A study of Bos taurus with 3 samples.

Results

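The cells described here are a fraction of the stromal cells grown from the bone marrow of 1 cow, set apart by high counts of 4 genes. SERPINF1, CLU, SORBS2 and ALDH1L2 were scored together in every marrow stromal cell, and the 829 cells in the top 10% of the score are called members; the other 7468 marrow stromal cells are their comparison. Members were 829 of 8297 marrow stromal cells and 4.47% of the 18561 cells counted in the series. The score was the mean over the 4 genes of the natural log of 1 plus the unique molecular identifiers (UMIs, the counted RNA molecules) per 10000 UMIs of the cell. A marrow stromal cell was a barcode with at least 4415 UMIs of which TYROBP, FCER1G and AIF1, genes of myeloid cells, made up less than 0.02%.

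Mesenchymal stromal cells came from the marrow, fat and peripheral blood of 1 healthy, untreated, wild-type Holstein-Friesian cow in first lactation. The culture medium was the same for all 3 (DMEM, low glucose, 30% serum), and cells were taken when colonies could be seen. Each tissue gave 1 library of 10x Genomics single-cell 3' v3.1 chemistry, so neither tissues nor cell groups have replicates, and no test over samples exists. All intervals below are 95% intervals that cover counting error only.

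SERPINF1 encodes pigment epithelium-derived factor, a secreted protein of the serpin fold that acts on vessels and is needed for bone mineralization. CLU encodes clusterin, a secreted chaperone. SORBS2 encodes an adaptor protein of actin fibres and cell adhesions, and ALDH1L2 a mitochondrial enzyme of folate metabolism that is a known target of the transcription factor ATF4. Marrow stromal cells in the animal make bone and fat cells and hold blood stem cells in place through secreted factors; in culture they divide and lay down a collagen matrix.

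The libraries held 98016815 to 106322567 UMIs each, and 4 to 10 cell barcodes were shared between any pair of libraries. The members had a median of 9931 UMIs per cell, and the other marrow stromal cells 9031. At an equal depth of 4000 UMIs per cell, the members had a median of 1642 genes and the others 1701. Mitochondrial genes took a median of 2.45% of UMIs in members and 2.44% in the others. Above the 95th percentile of UMI totals lay 10.0% of members and 4.43% of the others; doublets were not removed, and their part was not tested.

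The stromal label held for the members. Of the 16 stromal markers, 13 reached 50 CPM (UMIs summed over the cells of a group and scaled to a common total, so that levels can be set side by side) in members or others. Markers of blood and vessel lining cells were low: the 15 macrophage markers summed to 17.4 CPM in members and 19.4 CPM in the others, with PTPRC, ITGAM and C1QB at 0 in members. TYROBP, FCER1G and AIF1 are among these 15 and set the rule for stromal cells. A low macrophage sum therefore follows from the choice of cells. The neutrophil markers summed to 31.2 CPM in members and 42.9 CPM in the others, and the endothelial markers to 2.33 CPM in members and 1.44 CPM in the others. The pericyte and mural markers were not low, at a sum of 318 CPM in members and 193 CPM in the others, of which ACTA2 made up 262 CPM in members and 127 CPM in the others; their part in the results was not tested. Of the usual surface markers of cultured stromal cells, CD44 stood at 218 CPM in members and 213 CPM in the others, NT5E at 149 CPM in members and 122 CPM in the others, and ENG at 32.4 CPM in members and 36.8 CPM in the others. THY1 was at 2.94 CPM in members and 1.63 CPM in the others.

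The 4 score genes chose the members, so their levels are a description. SERPINF1 stood at 147 CPM in members and 15.6 CPM in the other marrow stromal cells, and CLU at 85.9 CPM in members and 12.2 CPM in the others. SORBS2 stood at 164 CPM in members and 24.5 CPM in the others, and ALDH1L2 at 182 CPM in members and 45.8 CPM in the others. All 4 transcripts were scarce even in members, where the median cell had 1 SERPINF1 UMI and the highest had 18. At 4000 UMIs per cell, SERPINF1 was seen in 42.0% of members (38.6 to 45.4%) and 5.29% of the others, and SORBS2 in 49.2% of members (45.8 to 52.7%) and 8.40% of the others. ALDH1L2 was seen in 55.6% of members and 15.8% of the others, whereas CLU was seen in 16.6% of members (14.2 to 19.4%) and 3.58% of the others.

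**Figure D1:**
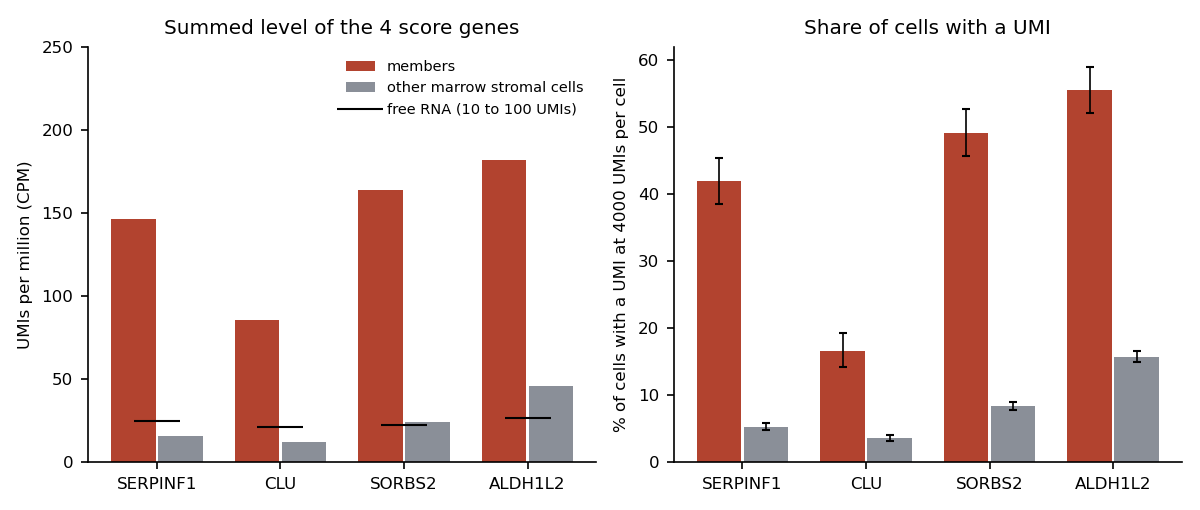
Level in CPM (left) and percent of cells with at least 1 UMI at 4000 UMIs per cell (right; bars are exact 95% binomial intervals) of the 4 score genes in 829 members and 7468 other marrow stromal cells. Black marks give the level in free RNA, from 21.6 to 26.9 CPM. The members, which were chosen for these genes, exceed it for each gene.

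Free RNA, read from marrow barcodes of 10 to 100 UMIs, held 24.6 CPM of SERPINF1, 21.6 CPM of CLU, 22.3 CPM of SORBS2 and 26.9 CPM of ALDH1L2. Summed over the other marrow stromal cells, SERPINF1 and CLU were below these levels and SORBS2 near its level. The cells highest for these genes had been taken out of the others, so these low sums follow in part from the rule. Single cells among the others nonetheless held up to 6 SERPINF1, 13 CLU and 14 SORBS2 UMIs. Over all marrow stromal cells, SERPINF1 stood at 30.4 CPM, CLU at 20.5 CPM, SORBS2 at 40.2 CPM and ALDH1L2 at 61.1 CPM. The 984 marrow barcodes over the myeloid limit gave a second background at a median of 8743.5 UMIs. SERPINF1 was seen in 3.96% of these barcodes, SORBS2 in 4.57%, ALDH1L2 in 7.42% and CLU in 8.74%. Many of these barcodes also held stromal RNA, since COL1A1 was seen in 58.0% of them.

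Few members had every score gene. All 4 genes were detected in 116 members, 3 in 397, 2 in 310 and 1 in 6, while 3592 of the 7468 others had none. Scores ran from 0.533 to 1.52 in members, with a median of 0.679, and from 0 to 0.533 in the others, with a median of 0.119. The 10 members nearest the limit scored 0.5335 to 0.5354 and the 10 cells just outside it 0.5313 to 0.5331, so the limit cuts a continuous range. When the UMIs of each cell were divided at random into 2 equal portions and scored on each, 320 of 829 cells (38.6%, 35.3 to 42.0%) were in the top 10% both times. In UMIs not used for the score, SERPINF1 was at 104 CPM in cells chosen on the other portion and 21.2 CPM in the rest, a ratio of 4.91, and ALDH1L2 at 120 CPM in the chosen cells and 53.9 CPM in the rest, a ratio of 2.23.

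The members had higher levels of collagen and other matrix genes than the other marrow stromal cells, and lower levels of cell-cycle genes. A gene was counted as apart at a CPM ratio of at least 1.5 in either direction with at least 50 CPM in the higher group. On that rule 94 of 3013 genes (3.12%) were higher in members and 149 (4.95%) were lower, the 4 score genes aside. At a ratio of at least 2, 20 genes (0.664%) were higher and 10 (0.332%) lower. At the 50 CPM minimum, a gene under 50 CPM in members could only be called lower. A gene under 50 CPM in the others could only be called higher. Apart here names a size, not a test, and the median gene of at least 10 CPM had a log2 ratio of -0.09.

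COL1A1, which encodes the main chain of type I collagen, had the highest correlation with the score among genes of at least 50 CPM outside it. At 4000 UMIs the median member held 27 COL1A1 UMIs (5th to 95th percentile 10 to 60), and the median other cell 12 (1 to 32). Summed, COL1A1 stood at 7821 CPM in members and 3489 CPM in the others, a ratio of 2.24 (2.22 to 2.26). The groups overlapped widely cell by cell, and all 829 members had a COL1A1 UMI. Across 8297 cells the Spearman correlation with the score was 0.39 for COL1A1, 0.32 for COL1A2, 0.23 for SPARC, 0.23 for TMSB4X and 0.22 for MKNK2. For these correlations every cell was taken at 4000 UMIs, and its score was computed from those same UMIs. All points share 1 library. COL1A1 is among the abundant genes, and the part of abundance in this order was not tested.

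Of 14 collagen genes at 10 CPM, 13 were above a ratio of 1, with a median log2 ratio of 0.42, against -0.09 for all genes. COL11A1 encodes a chain of the type XI collagen that is typical of cartilage and of fibril cores. It stood at 129 CPM in members and 42.4 CPM in the others, a ratio of 3.04 (2.85 to 3.24). This ratio was the largest among all genes of at least 50 CPM that are not score genes. COL11A1 reached 50 CPM in members only, so at that minimum it could not be called lower. COL3A1 stood at 633 CPM in members and 318 CPM in the others, a ratio of 1.99, and COL1A2 had a ratio of 1.83. Type V and type VI collagen genes differed less, with COL5A1 at 1.28 and COL6A1 at 1.10, and COL14A1 was at 21.8 CPM in members and 29.8 CPM in the others.

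Genes that assemble the matrix were also higher. LOXL2, an enzyme that cross-links collagen, had a ratio of 1.99, PLOD2, which hydroxylates collagen lysines, 1.63, and P4HA1, which hydroxylates its prolines, 1.56. All 8 elastic fibre genes at 10 CPM were above 1, with a median log2 ratio of 0.57. The fibrillin gene FBN1 stood at 723 CPM in members and 453 CPM in the others, and FBLN2, for fibulin 2, at 331 CPM in members and 169 CPM in the others. Elastin itself, ELN, was scarce, at 20.9 CPM in members and 7.2 CPM in the others. FMOD, for the collagen-binding proteoglycan fibromodulin, had a ratio of 2.01, FN1, for fibronectin, 1.62, and MMP2, a gelatinase, 1.68. LUM, for the related lumican, stood at 639 CPM in members and 425 CPM in the others.

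**Figure D2:**
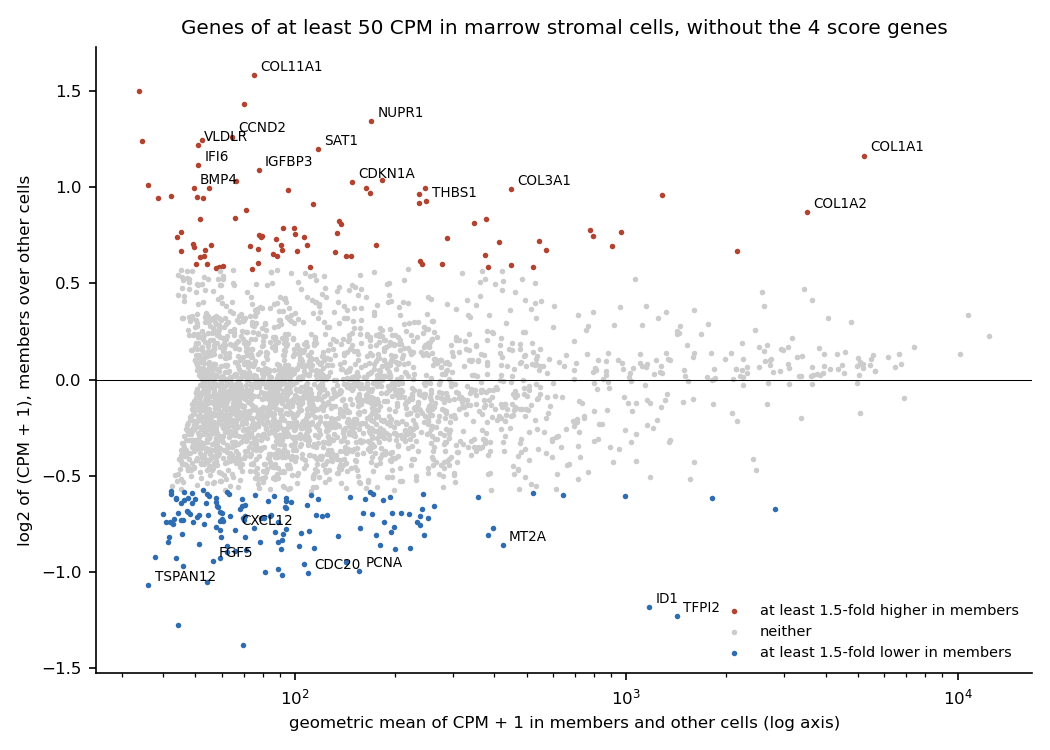
Each point is a gene of at least 50 CPM in members or other marrow stromal cells; the horizontal axis gives its mean level and the vertical axis the log2 ratio of members over others after adding 1 CPM. The 94 genes higher and 149 lower by at least 1.5-fold are coloured; COL1A1 and COL1A2 lie far right at high level, TFPI2 and ID1 lie lowest among abundant genes.

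The integrated stress response, in which ATF4 switches on genes for amino acid supply and stress defence, was higher across its list. All 25 of its 25 genes at 10 CPM were above a ratio of 1, against 2693 of 7105 genes in all. The median log2 ratio was 0.59. Of 17 genes at 50 CPM, 8 were higher and 0 lower, against 3.12% higher and 4.95% lower among all 3013 genes. VLDLR, PCK2 and ATF5 reached 50 CPM in members only, so at that minimum they could not be called lower. NUPR1, a small stress-induced nuclear protein, stood at 269 CPM in members and 105 CPM in the others, a ratio of 2.56 (2.44 to 2.67). VLDLR, a lipoprotein receptor, had a ratio of 2.37, PCK2, the mitochondrial enzyme that makes phosphoenolpyruvate, 2.07, and the transcription factor ATF5 1.96. ATF4 itself was at 568 CPM in members and 426 CPM in the others, and DDIT3, its pro-death target, at 103 CPM in members and 76.5 CPM in the others.

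ALDH1L2 is itself a target of this response, so a score that holds it is not independent of the list. The amino acid and transfer RNA genes were among the members' higher genes. ASNS, which makes asparagine, stood at 135 CPM in members and 89.7 CPM in the others, and the transfer RNA charging enzymes WARS1 and GARS1 had ratios of 1.68 and 1.51. PSPH and PSAT1, the closing and middle steps of serine synthesis, had ratios of 1.57 and 1.52, and PHGDH, the opening step, 1.42. The serine and one-carbon list as a whole, the score genes aside, did not share this, with 5 of 13 genes above 1 and a median log2 ratio of -0.18. Other aldehyde dehydrogenase genes had a median of 0.01, and ALDH1L1, the cytosolic relative of ALDH1L2, had 0 UMIs in both groups, which allows up to 0.304 CPM in members and 0.0386 CPM in the others.

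Cell-cycle genes were lower in members. Of 36 genes of the G2M list at 50 CPM, 35 were lower and 0 higher, with a median log2 ratio of -0.77. Of 18 S-phase genes 13 were lower and 0 higher, with a median of -0.71. Among all 3013 genes, 4.95% were lower. The median member spent 0.449% of its UMIs on both lists together and the median other cell 0.855%. PCNA, the clamp of DNA synthesis, stood at 110 CPM in members and 220 CPM in the others, a ratio of 0.50, and CDC20, a mitotic activator, had a ratio of 0.49. The histone genes H2AC12 and H2AC20 had ratios of 0.40 and 0.48, which are uncertain because near-identical histone genes can share reads. CDKN1A, which encodes the cell-cycle inhibitor p21, stood at 211 CPM in members and 103 CPM in the others, a ratio of 2.05 (1.95 to 2.15), and CCND2, a G1 cyclin, at 98.7 CPM in members and 40.5 CPM in the others.

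Members were more often cells with few cell-cycle transcripts. In the lower 50% of marrow stromal cells by S and G2M share, the low-cycling cells, lay 609 of 829 members (73.5%, 70.3 to 76.4%) and 3540 of 7468 others (47.4%, 46.3 to 48.5%). Among low-cycling cells, 609 members against 3540 others, 229 of 2933 genes (7.81%) were apart, and these held 78 of the 94 higher and 106 of the 149 lower genes of all cells. COL1A1 had a ratio of 2.12 among low-cycling and 2.01 among high-cycling cells, and NUPR1 2.25 and 1.98. Among high-cycling cells, compared after the other results were known, the G2M list had a median log2 ratio of 0.09, while the stress response list had 0.82. CDKN1A had a ratio of 2.01 among low-cycling and 1.27 among high-cycling cells.

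Genes of the p53 response, which follows DNA damage and other stress, were above a ratio of 1 in 8 of 9 cases at 10 CPM. Their median log2 ratio was 0.75, against -0.09 for all genes. Besides CDKN1A, GADD45A stood at 179 CPM in members and 101 CPM in the others, and MDM2 at 101 CPM in members and 59.9 CPM in the others. SESN2 stands in both the p53 and the stress response list. Of the interferon-induced genes, 6 of 10 were above 1, and 2 of 2 at 50 CPM were higher, against 3.12% of all 3013 genes. These were IFIT1, which blocks foreign RNA, at 55.8 CPM in members and 19.1 CPM in the others, and IFI6. IFI6 stood at 74.0 CPM in members and 33.7 CPM in the others. Both reached 50 CPM in members only, so at that minimum they could not be called lower. IGFBP3 and IGFBP4, which bind insulin-like growth factors, had ratios of 2.15 and 1.89.

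Genes lower in members outside the cell cycle included several secreted regulators. TFPI2, a secreted protease inhibitor of the matrix, had a median of 2 UMIs per member at 4000 UMIs (5th to 95th percentile 0 to 13) and 6 per other cell (0 to 28). Its level was 927 CPM in members and 2172 CPM in the others, a ratio of 0.43 (0.42 to 0.44). ID1, a target of bone morphogenetic protein signalling that holds back differentiation, stood at 777 CPM in members and 1764 CPM in the others, a ratio of 0.44 (0.43 to 0.45). ID2 and ID3 differed less, with ratios of 0.83 and 0.82.

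Among ligands of that pathway, BMP4 stood at 68.8 CPM in members and 34.0 CPM in the others and BMP2 at 198 CPM in members and 187 CPM in the others. The antagonist GREM1 had a ratio of 0.64, and DKK1, an antagonist of Wnt signalling, 0.54. CXCL12, the chemokine by which marrow stroma holds blood stem cells, stood at 49.3 CPM in members and 85.4 CPM in the others, a ratio of 0.58 (0.53 to 0.63). KITLG, the stem cell factor gene, was scarce, at 1.72 CPM in members and 5.004 CPM in the others.

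Cholesterol synthesis genes were lower as a list. All 17 at 10 CPM were below a ratio of 1, with a median log2 ratio of -0.53, while the median of all genes at 10 CPM was -0.09. At 50 CPM 5 of 8 were lower, against 4.95% of all 3013 genes. HMGCS1, an early enzyme of the pathway, stood at 119 CPM in members and 204 CPM in the others, and SQLE at 44.2 CPM in members and 78.5 CPM in the others. Lysosomal genes went the other way, with 19 of 20 above 1 and a median log2 ratio of 0.36. CTSK, the collagen-degrading cathepsin, stood at 501 CPM in members and 280 CPM in the others.

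Bone genes differed little as a list. The osteoblast list had a median log2 ratio of 0.02; SPP1 stood at 1027 CPM in members and 1115 CPM in the others, and RUNX2 at 67.6 CPM in members and 55.0 CPM in the others. IBSP, for bone sialoprotein, was the exception at 20.8 CPM in members and 4.75 CPM in the others, below the 50 CPM minimum. Of 12 contractile genes at 50 CPM, 3 were higher and 0 lower, against 3.12% and 4.95% of all 3013 genes. The list of 15 at 10 CPM had a median log2 ratio of 0.15. The 3 were ACTA2, the smooth muscle actin, at a ratio of 2.06, MYL9, a myosin light chain, at 1.74, and TPM2, a tropomyosin, at 1.71, while TAGLN was at 37.6 CPM in members and 28.1 CPM in the others. Partners of SORBS2 at adhesions differed little, with VCL, for vinculin, at 198 CPM in members and 201 CPM in the others. Of the serpins other than SERPINF1, SERPINE2 had a ratio of 1.70.

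The differences were graded along the score. From cells at score 0, through 5 rising bins, to members, COL1A1 stood at 2436, 3375, 3649, 4024, 4519, 5468 and 7821 CPM. TFPI2 ran the other way over the same bins, at 2628, 2333, 2041, 1919, 1620, 1392 and 927 CPM. For both genes the last step, into the members, was the largest.

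**Figure D3:**
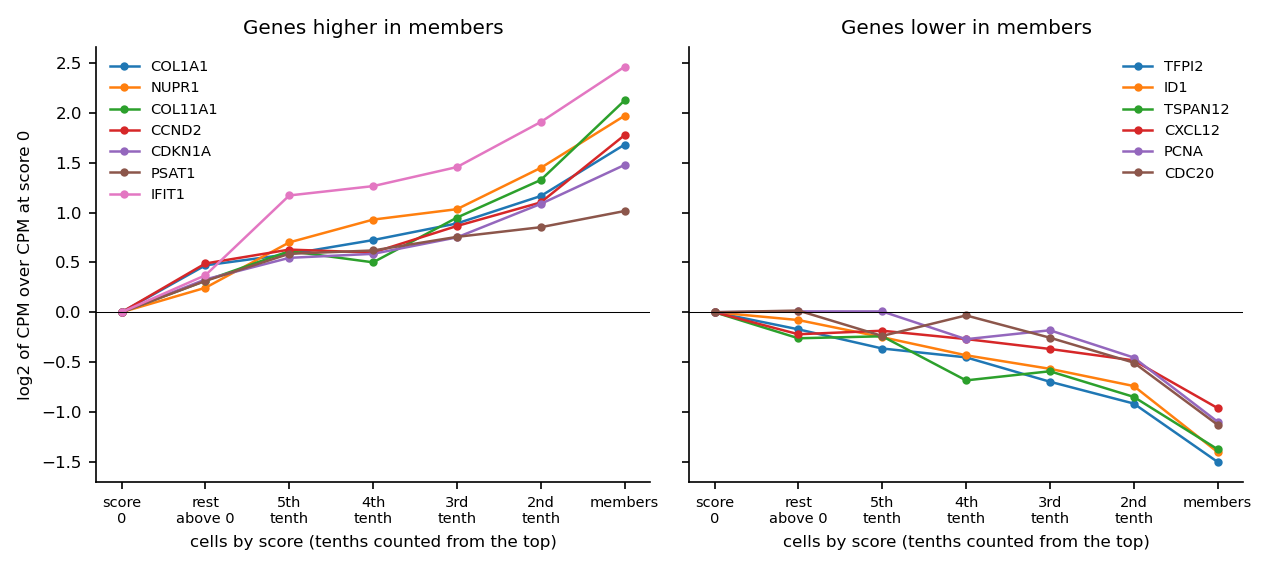
log2 level of 7 genes higher and 6 lower in members, relative to their CPM in the 3592 marrow stromal cells at score 0, over 7 bins of rising score that end with the 829 members. COL1A1 is at 2436 CPM at score 0 and at 7821 CPM in members, and TFPI2 at 2628 CPM at score 0 and 927 CPM in members.

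The 4 genes did not all mark the same cells. At 4000 UMIs, SERPINF1 and SORBS2 were found together in 180 marrow stromal cells, 1.94 times the product of their shares, SERPINF1 and ALDH1L2 1.72 times, and SORBS2 and ALDH1L2 1.66 times. CLU met SERPINF1 1.76 times the product, but SORBS2 only 1.13 times and ALDH1L2 1.10 times. CLU was also the most concentrated, with 36.8% of its UMIs in the top 1% of cells, against 20.1% for SERPINF1, 14.1% for SORBS2 and 8.82% for ALDH1L2. This order is the reverse of their abundance, at 1795 UMIs for CLU, 2663 for SERPINF1, 3526 for SORBS2 and 5352 for ALDH1L2. These counts were not brought to equal depth, and the part of abundance and depth was not tested.

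Marrow stromal cells were then divided by each score gene alone, a comparison chosen after the other results were known. At 4000 UMIs, 405 cells had a CLU UMI and 7892 had none, and CDKN1A stood at 323 CPM in cells with CLU and 94.1 CPM in cells without, a ratio of 3.43 (3.12 to 3.77). MDM2, a target and inhibitor of p53, stood at 133 CPM in cells with CLU and 57.6 CPM in cells without, a ratio of 2.31 from 216 and 1819 UMIs. The same CDKN1A ratio was 1.27 by SERPINF1, 1.11 by SORBS2 and 1.27 by ALDH1L2, and the MDM2 ratio 1.04, 1.06 and 1.12.

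The stress response divided the score genes the other way. Its median log2 ratio was 0.58 by SERPINF1, 0.47 by SORBS2 and 0.54 by ALDH1L2, each with 25 of 25 genes above 1. By CLU it was 0.03, with 14 of 25 genes above 1. PSAT1 had ratios of 1.42 by SERPINF1, 1.44 by SORBS2, 1.55 by ALDH1L2 and 0.90 by CLU. TFPI2 was 0.53, 0.52 and 0.70 by the same 3 genes and 0.86 by CLU. COL1A1 was above 1 by each gene, at 1.68, 1.74, 1.62 and, by CLU, 1.29.

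Members were also divided by CLU, as a description: CLU is part of the score, so members without it had to reach the limit through SERPINF1, SORBS2 and ALDH1L2, and differences in genes that go with those 3 cannot be told apart from that choice. The 257 members with a CLU UMI had a median of 12759 UMIs and the 572 without 9230.5, so detection of CLU went with depth. CDKN1A stood at 355 CPM in members with CLU and 113 CPM in members without, a ratio of 3.15 (2.87 to 3.46), and MDM2 at 161 CPM in members with CLU and 59.4 CPM in members without, a ratio of 2.71 (2.37 to 3.10). At an equal depth of 4000 UMIs, with 138 members against 691, the ratios were 3.56 (3.02 to 4.20) for CDKN1A and 2.20 (1.70 to 2.83) for MDM2. Members with CLU had less of the S and G2M lists, at a median of 0.195% of UMIs against 0.540% in members without. Among the low-cycling marrow stromal cells, the CDKN1A ratio by CLU was 3.61 and the MDM2 ratio 2.89. COL1A1 was at 8332 CPM in members with CLU and 7470 CPM in members without.

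CDKN1A and MDM2 were also higher in cells with CLU in the adipose and blood libraries. In blood, 232 stromal cells had a CLU UMI at 4000 UMIs and 2801 had none, with CDKN1A at 245 CPM in cells with CLU and 80.6 CPM in cells without, a ratio of 3.04 (2.61 to 3.51), and an MDM2 ratio of 1.87 from 99 and 638 UMIs. In adipose tissue the ratios were smaller, at 1.44 (1.29 to 1.60) for CDKN1A and 1.59 (1.38 to 1.82) for MDM2. The stress response median by CLU was -0.08 in blood and -0.11 in adipose tissue, whereas by SERPINF1 it was 0.32 in blood and 0.49 in adipose tissue. Over the whole p53 list CLU stood out less: the median log2 ratio in marrow was 0.51 by CLU, 0.35 by SERPINF1, 0.31 by SORBS2 and 0.35 by ALDH1L2. In blood it was 0.38 by CLU, 0.24 by SERPINF1 and 0.22 by ALDH1L2. In adipose tissue it was 0.13 by CLU, below the 0.27 by SERPINF1 and level with the 0.13 by ALDH1L2.

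**Figure D4:**
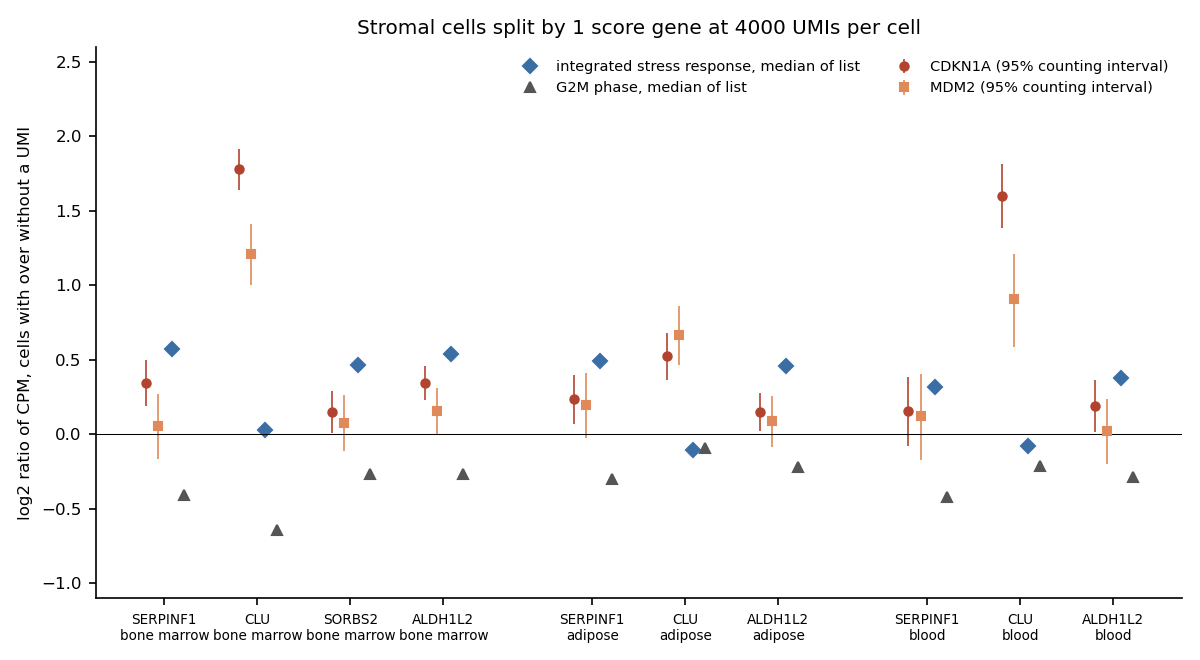
log2 ratio of CPM in stromal cells with over without a UMI of 1 score gene, each cell at 4000 UMIs, for CDKN1A and MDM2 (bars are 95% counting intervals) and as the median of the stress response and G2M lists. CLU has the highest CDKN1A and MDM2 values in each library and the lowest stress response values, near 0.

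SORBS2 had 3526 UMIs in the marrow stromal cells, 12 in 6088 adipose cells and 3 in 3033 blood cells. Free RNA held 0 SORBS2 UMIs in adipose tissue and blood, which allows up to 1.43 CPM and 1.13 CPM. The same score there therefore rested in effect on the other 3 genes. Its top 10% were 608 adipose cells and 303 blood cells. Each tissue is 1 library, so tissue and library cannot be told apart. Depth also differed, at a median of 9111 UMIs per stromal cell in marrow, 14391 in adipose tissue and 24926 in blood. The part of depth in comparisons between libraries was not tested. In the adipose library the endothelial markers summed to 74.0 CPM in the top 10% and 17.8 CPM in the rest, and their part in the adipose values was not tested.

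The genes higher in marrow members were largely higher under the same score elsewhere. Of the 94 genes, 46 were apart in adipose tissue as well, where 104 of 3081 genes (3.38%) were higher, and 45 in blood, where 105 of 3016 (3.48%) were. The shared genes were 48.9% of the marrow list and 44.2% of the adipose list, and 47.9% of the marrow list and 42.9% of the blood list. Of the marrow genes that reached 50 CPM there, 71 of 71 in adipose tissue and 79 of 80 in blood lay above 1, against 38.5% and 39.8% of all genes. The libraries come from 1 animal and the scores share genes.

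In all 3 libraries 27 genes were higher, among them COL1A1, COL1A2, COL3A1, FN1, LOXL2, NUPR1, PCK2, ATF5, WARS1, CCND2, CTSK, CTSD, TIMP3 and IFIT1. Lower genes numbered 43 (1.40%) in adipose tissue and 226 (7.49%) in blood, of which 35 and 106 were among the 149 of marrow. In all 3 libraries 30 genes were lower, mostly of the cell cycle, and the metallothionein MT2A was among them at a marrow ratio of 0.55. TFPI2 and ID1 were lower in marrow more than elsewhere: ID1 had ratios of 0.44 in marrow, 0.92 in adipose tissue and 0.83 in blood. BMP4 had a ratio of 2.02 in marrow, 1.16 in adipose tissue and 0.87 in blood. Differences between the libraries were not tested.

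**Figure D5:**
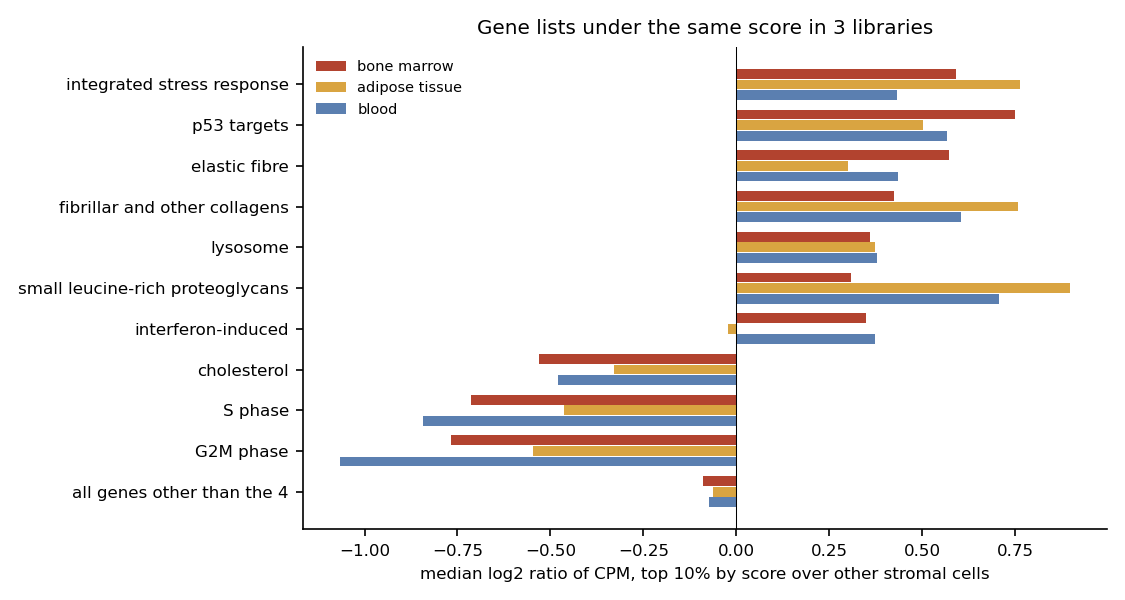
Median log2 ratio of CPM, top 10% by the same score over other stromal cells, for 10 gene lists and for all genes, in bone marrow, adipose tissue and blood. The stress response list lies at 0.59, 0.76 and 0.43 and the G2M list at -0.77, -0.55 and -1.07 in that order.

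Members were seldom among the marrow stromal cells high for other gene groups. Of the members, 42 (5.07%, 3.68 to 6.79%) were in the top 10% by IGFBP5, TINAGL1 and INHBA, against 10.5% of the others. By BMP2, OMD and DKK1, 54 members (6.51%, 4.93 to 8.41%) were in the top 10%, against 10.4% of the others. The stress response list, at 0.59 in members, had a median of -0.40 in the IGFBP5 set and -0.13 in the BMP2 set. For the p53 list the values were 0.75, -0.20 and -0.03.

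The marrow stromal cells formed 6 clusters when the 4 score genes were left out of the clustering. Cluster 2, of 1272 cells, held 426 members (51.4%, 47.9 to 54.8%), which were 33.5% of it. Its median S and G2M share, 0.205%, was the lowest of the 6. Cluster 4, whose leading genes are IGFBP5, NRN1 and TINAGL1, held 7 members, and cluster 5, of 19 cells led by RETN and class II antigen-presenting genes, held 0 (up to 0.444% of members). The remaining 396 members were spread over clusters 0, 1 and 3, with 147, 153 and 96.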

How the data were processed

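The deposited values are UMI counts per gene and barcode, which the authors made with Cell Ranger. The file headers give its version as 4 and the submitters' processing notes as 6.1.1; the notes name the genome build ARS-UCD1.2. The matrices listed 21861 genes, 17282 with a symbol, and every barcode. Cells were barcodes over an order-of-magnitude UMI minimum, 4438.5 in adipose tissue and 4415 in bone marrow. The members, the gene lists and the comparisons were chosen with earlier results of these data known; the splits by 1 gene and by CLU within members, and the high-cycling cells, were added after the first results.

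UMIs were summed per group and scaled to CPM. With 1 library per tissue and cells that are not replicates, no test was run. Ratios carry exact conditional Poisson intervals, shares exact Clopper-Pearson intervals. Named genes are the 4 score genes, the 15 largest ratios in each direction at 50 CPM, list members past 1.5-fold, the highest members of a described list, the 5 genes of highest correlation with the score and 4 surface markers; other list members were named after their values were seen. Of 1059 entries in 59 lists, 1014 were found by symbol; some genes stand in several lists. Doublets were not called. Clustering used 2000 variable genes, 30 components, 15 neighbours and Leiden resolution 0.5 (leidenalg 0.10.2, seed 1). Calculations used Python 3.11.15, numpy 2.4.6, scipy 1.17.1 and pandas 2.3.3, and were tested on simulated data.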

Additional observations from a re-analysis of the deposited data

Results flagged for a closer look

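TFPI2 and THBS1 lay on opposite sides of 1 in different libraries under the same score, and neither difference was tested. TFPI2 had a ratio of members over other cells of 0.427 in bone marrow, and of top 10% over the rest of 1.13 (1.10 to 1.17) in adipose tissue. THBS1, which encodes thrombospondin 1, a matrix protein that restrains vessel growth, had a ratio of 1.90 in bone marrow and 0.896 (0.869 to 0.924) in blood. With 1 library per tissue, tissue and library cannot be told apart.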

How the results depend on the processing

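No paired analysis was possible because each tissue has 1 library. Under the alternatives tried, 0 of 1890 gene ratios and 0 of 280 list medians were counted as changing direction. For genes, such a change was counted only where the main ratio was past 1.5-fold, and the 1890 also hold other genes. Lists with a median log2 ratio under 0.2 in size were not followed. The high-cycling cells, in which the G2M list was not lower, were not among the alternatives. Of the gene ratios, 778 moved by more than their counting interval. The counts of genes apart, 94 higher and 149 lower, depended on the limits. They were 148 and 323 in the top 5% of cells and 60 and 40 in the top 20%. They were 51 and 66 with the score taken at 4000 UMIs, 20 and 10 at 2-fold, 1923 and 1198 with no CPM minimum, and 59 and 75 at 100 CPM. With the score on 50% of the UMIs and values from the rest, they were 78 and 91. The cause was not tested. The median log2 ratio of all genes was -0.06 under TMM scaling and -0.09 without it. Scarce score genes limit who is a member: 38.6% of cells were chosen by both portions of their UMIs. The single library and single cow leave differences between animals or cultures unmeasured.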
